A study of Homo sapiens with 6 samples.

Results

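CCN1 (also CYR61) and CCN2 (also CTGF) encode secreted proteins that bind integrins and matrix and are widely read as reporters of Hippo pathway output. Their loci were examined in peak lists from H1299 cells, an established line of human non-small cell lung cancer. All cells had been kept without serum for 18 hours, and no group differed in genotype or treatment. Chromatin was precipitated with an anti-YAP antibody (2 libraries), with an anti-TAZ antibody (2 libraries), or left as input (2 libraries, which have no list of their own). A locus was the gene span in build hg19 with 100 kb on each side: CCN1 at chr1:86046444-86049648 on the plus strand, and CCN2 at chr6:132269316-132272518 on the minus strand. Of 1389618 deposited peaks on chromosomes 1 to 22 and X, 239 overlapped these windows: 66 and 63 with YAP, and with TAZ 57 and 53. Peaks that shared at least 1 base were merged over all 4 lists, which gave 36 regions at CCN1 and 43 at CCN2, of 452943 in all. The labels do not say that replicates came from separate cultures, so the spread between libraries may be technical. The lists hold no read totals, so depth is unknown and a missing peak means only that none was deposited.

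YAP and TAZ are paralogous coactivators without a DNA-binding domain of their own. The Hippo kinases keep them in the cytoplasm, and in the nucleus they reach DNA mainly through TEAD factors, often at elements that also bind AP-1 and often far from the gene. CCN1 and CCN2 are classic targets of this pathway, and TEAD motifs in the CCN2 promoter are a standard laboratory reporter of it. In RefSeq (GRCh38.p14, used for gene order only), the nearest protein-coding neighbour upstream of CCN1 is DDAH1, an enzyme that degrades methylated arginine, and the nearest downstream is ZNHIT6, a factor of small nucleolar RNP assembly. Upstream of CCN2 lies MOXD1, and downstream lies ENPP1, a membrane enzyme that hydrolyses extracellular nucleotides. The noncoding gene CCN2-AS1 overlaps CCN2 in that table. Positions of exons and of neighbouring genes in hg19 were not used here. A peak of these windows may therefore lie inside a neighbouring gene.

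The promoter sequence of CCN2 is shown because peaks next to the start sites differed between the antibodies. It is the 250 bases before the RefSeq start, minus strand, chr6:131951373-131951622 of GRCh38.p14 (not hg19), with capitals marking GGAATG, the core of the TEAD motif.

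CCN2 promoter: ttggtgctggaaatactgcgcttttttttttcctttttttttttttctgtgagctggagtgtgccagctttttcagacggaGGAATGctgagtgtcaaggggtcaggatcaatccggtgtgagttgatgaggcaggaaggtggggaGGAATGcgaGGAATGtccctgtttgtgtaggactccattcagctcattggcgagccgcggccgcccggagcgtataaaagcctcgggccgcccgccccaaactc

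Searched on both strands (GGAATG and CATTCC), these 250 bases held 3 matches, all on the strand of the gene. They began 169, 104 and 95 bases before the start. Among the 35116 RefSeq promoters, cut to the same length, 11.9% held at least 1 match and 29 (0.0826%) held at least 3. The AP-1 motif TGANTCA, which is its own reverse complement, had 0 matches in the CCN2 window and at least 1 in 6.57% of promoters. A match describes letters and not a bound site. Only the CCN2 entry was matched in the promoter table.

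Over the CCN1 start and just inside CCN2 the peaks came mainly from TAZ. At CCN1, TAZ replicate 1 had a peak of 1689 bp that ran from 930 bp upstream to 758 bp downstream of the start. TAZ replicate 2 had a peak of 1770 bp, from 1092 bp upstream to 677 bp downstream. The 2 TAZ peaks thus nearly coincided. YAP replicate 1 had only a peak of 265 bp, from 26 to 290 bp inside the gene, and no YAP peak covered the start itself. YAP replicate 2 had nothing between 5511 bp upstream and 10446 bp downstream.

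At CCN2 no peak of any library covered the start or the 5 kb before it, the side on which the promoter with the TEAD motifs lies. The nearest peaks lay just inside the gene and belonged to both TAZ libraries: from 60 to 720 bp downstream in replicate 2 and from 237 to 760 bp in replicate 1. The YAP libraries had their nearest downstream peaks at 8169 and 8190 bp, past the end of the gene, which is 3203 bp long. Upstream, their nearest peaks lay at 5166 and 10419 bp. The map of peaks around the start sites shows this arrangement.

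**Figure D1:**
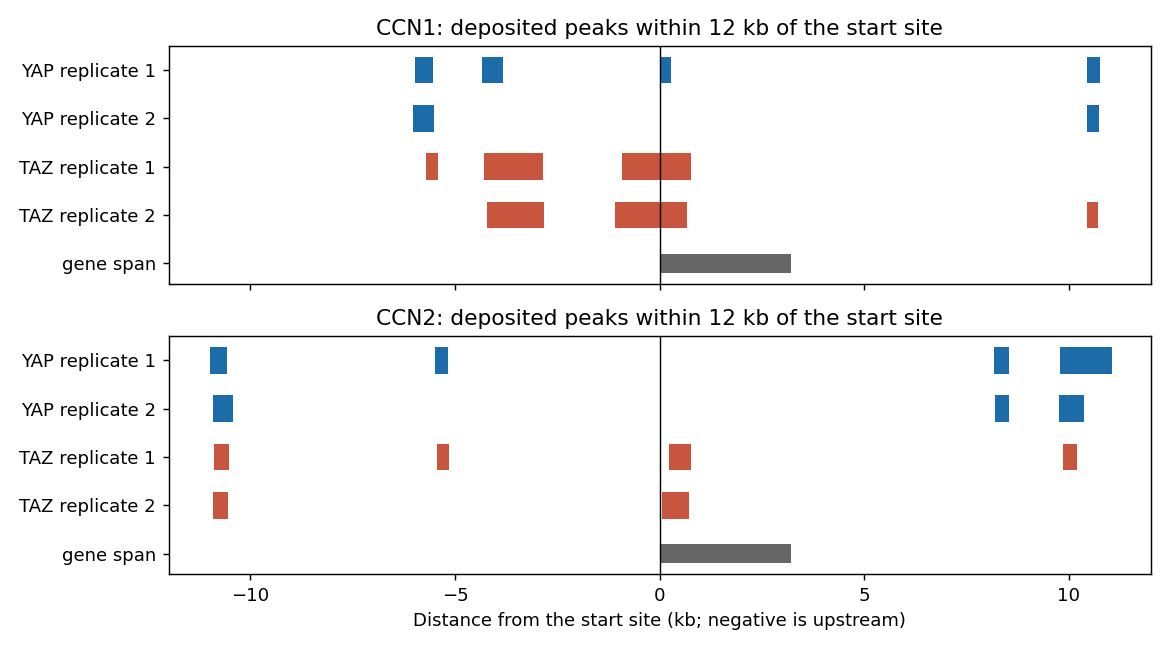
Deposited peaks within 12 kb of each start site, 1 row per library (blue YAP, red TAZ, grey the gene span). The horizontal axis is the distance from the start in kb, negative upstream. TAZ peaks of 1689 and 1770 bp lie over the CCN1 start and TAZ peaks of 524 and 661 bp lie just inside CCN2, where the YAP libraries have 1 peak of 265 bp and none.

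By the authors' measures these peaks, over or just inside the starts, mostly lay below the middle of their lists. The exception was the peak of TAZ replicate 2 at CCN2, which lay above the middle. The authors' fold, which divides ChIP by input over a peak, was 3.06 and 2.82 at CCN1 in the TAZ libraries, which placed these peaks at percentiles 42.8 and 33.2 of their own lists. The YAP replicate 1 peak there had a fold of 2.65, at percentile 19.0. At CCN2 the fold was 2.25 in TAZ replicate 1, at percentile 0.487 of its list, and 3.06 in TAZ replicate 2, at percentile 52.5. The −log10 q of the TAZ peaks was 2.51 and 1.999 at CCN1 and 1.31 and 3.03 at CCN2.

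Stricter lists kept only some of these peaks. At a q-value of at most 0.01, YAP replicate 1 and TAZ replicate 1 kept a peak in the CCN1 region. TAZ replicate 2 fell just short there, with a −log10 q of 1.999. At CCN2, TAZ replicate 2 alone kept one. With only as many top peaks per list as the shortest one holds, CCN1 kept both TAZ libraries and no YAP library, and CCN2 kept TAZ replicate 2 alone. Regions with peaks of both TAZ libraries and at most 1 YAP library numbered 5 of 36 at CCN1 and 3 of 43 at CCN2 (13.9% and 6.98%), against 6.61% of all merged regions. The regions next to both starts are among these, and the class was formed after they were seen. The reverse class, both YAP libraries and at most 1 TAZ library, numbered 11 of 36 and 10 of 43 (30.6% and 23.3%), against 21.9% of all merged regions. No annotation of start sites in hg19 was used, so it was not tested whether this arrangement is more common at start sites.

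CCN1 had further TAZ peaks close by. Between 1 and 5 kb upstream, peaks covered 35.6% and 37.3% of the bases in the TAZ libraries, against 13.2% in YAP replicate 1 and 0% in YAP replicate 2. The peaks there were 2861 to 4282 bp upstream in TAZ replicate 1 (fold 3.43), 2829 to 4229 bp in TAZ replicate 2 (3.47) and 3818 to 4343 bp in YAP replicate 1 (2.85). In the last kb before the CCN1 start the covered share was 93% and 100% in the TAZ libraries and 0% in both YAP libraries. In the first kb of the gene it was 75.9% and 67.8% for TAZ, and 26.5% and 0% for YAP.

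The same bands at CCN2 differed on the upstream side. The last kb before its start, and the 4 kb before that, were at 0% in all 4 libraries. The first kb of CCN2 was covered to 52.4% and 66.1% in the TAZ libraries and to 0% in the YAP libraries. From 1 to 5 kb downstream, which takes in the rest of the gene, the share was 0% in all 4 libraries at both genes. Over the whole gene span, the TAZ libraries covered 23.7% and 21.2% of CCN1 and 16.4% and 20.6% of CCN2. The YAP libraries covered 8.27% and 0% of CCN1 and 0% of CCN2. In both genes the 2 TAZ values lay above the 2 YAP values, but these are the same bases as in the first kb. Farther out at CCN2 the YAP values lay above the TAZ values from 5 to 20 kb downstream (17.9% and 11.6% against 7.92% and 3.91%). The same held from 50 to 100 kb downstream (21.9% and 18.6% against 16.2% and 13.8%). From 50 to 100 kb upstream the values were 9.22% and 8.71% against 5.56% and 6.09%. In the remaining CCN2 bands beyond 5 kb the antibodies overlapped.

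**Figure D2:**
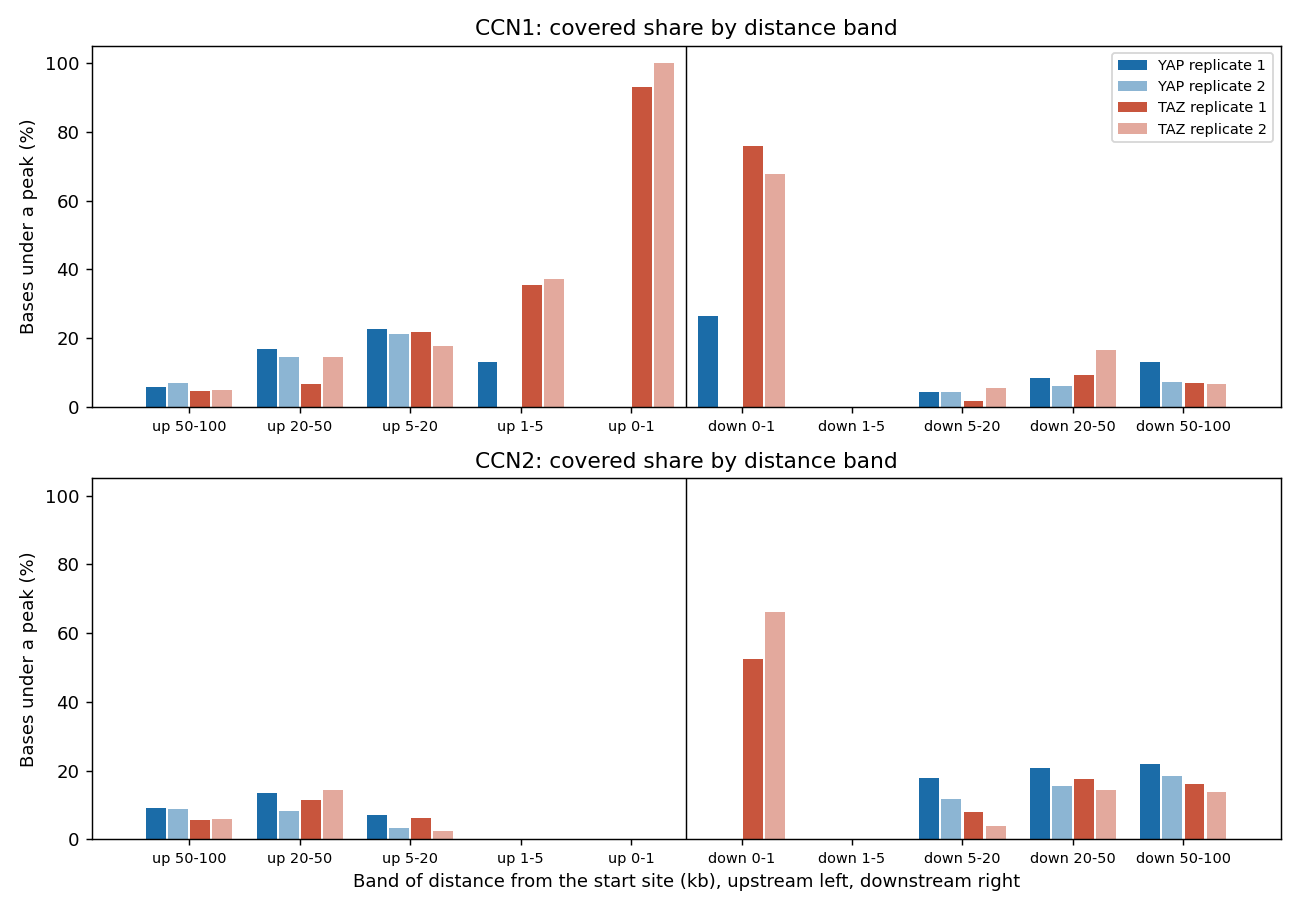
Share of bases under a deposited peak (vertical axis, %) in bands of distance from the start site (horizontal axis, kb, upstream left and downstream right), with 1 bar per library (blue YAP, red TAZ, paler for replicate 2). The tall red bars next to the start, 93% and 100% upstream of CCN1 and 52.4% and 66.1% inside CCN2, stand beside YAP bars of at most 26.5%.

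Farther out at CCN1 the order of the antibodies varied by band. The TAZ values lay above the YAP values from 20 to 50 kb downstream (9.22% and 16.5% against 8.52% and 6.13%). They lay below them from 50 to 100 kb downstream (6.89% and 6.60% against 13.0% and 7.27%). The same held from 50 to 100 kb upstream (4.52% and 4.79% against 5.86% and 6.94%). From 20 to 50 kb upstream TAZ replicate 1, at 6.65%, stood apart from the other libraries, at 14.6% to 16.9%. From 5 to 20 kb upstream the covered share was 22.7% and 21.1% with YAP, and with TAZ 21.6% and 17.7%. Most of the bases in this last band came from the widest region of the locus, at chr1:86029509-86032516, 13928 to 16935 bp upstream on the DDAH1 side. It was the nearest upstream region with peaks of all 4 libraries. The peaks spanned 2970 and 2659 bp with YAP and 2964 and 2662 bp with TAZ, so these widths differed more between replicate numbers than between antibodies. The fold was 3.40 and 3.75 with YAP, and with TAZ 3.13 and 3.46.

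Downstream of CCN1 the nearest region with peaks of all 4 libraries began 33008 bp from the start. It followed the longest peak-free stretch of the window, 17265 bp. Its fold was 3.08 and 3.82 with YAP, and with TAZ 3.84 and 3.14. The region at chr1:86084046-86084981, 37602 to 38537 bp downstream, had a fold of 4.88 in YAP replicate 1 and 4.28 in TAZ replicate 1, but 3.17 and 2.95 in the libraries numbered 2. The highest fold of the CCN1 window was 5.00, in YAP replicate 1 at chr1:86123868-86124629, 77424 to 78185 bp downstream on the ZNHIT6 side.

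Among the CCN1 regions with peaks of all 4 libraries, that distal region ranked first by the mean percentile of the fold, 83.3. Its fold was 5.00 and 4.20 with YAP (percentiles 99.4 and 95.4), and with TAZ 3.75 and 3.09 (83.4 and 55.1). YAP replicate 2 had its highest fold, 4.49, at 101159 to 102847 bp downstream, where YAP replicate 1 had 3.90 and TAZ had 2.59 and 3.44. TAZ replicate 2 had its highest, 3.89, at 86790 to 87199 bp, where both YAP libraries had 4.11 and TAZ replicate 1 had no peak. The percentiles there were 92.9 and 94.3 with YAP and 92.5 in TAZ replicate 2. Each library of this window thus had its strongest peak in a different region.

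CCN2 was flanked by more places that ranked high in several libraries. Among regions with peaks of all 4 libraries, the leading one lay at chr6:132207983-132209420, 63098 to 64535 bp downstream on the ENPP1 side, with a mean percentile of 90.7. Its fold was 3.70 and 3.96 with YAP, and with TAZ 4.23 and 4.06, at percentiles 81.7, 91.7, 94.2 and 95.2. All 4 libraries placed it in the upper part of their lists, and the centres of the 4 peaks lay within 75 bp. Beside it, at chr6:132214985-132215779, 56739 to 57533 bp downstream, the fold was 3.36 and 4.0 with YAP, and with TAZ 4.13 and 3.96, at a mean percentile of 85.8.

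The third in that order was closer to the gene, at chr6:132255576-132256038, 16480 to 16942 bp downstream. It was also the nearest downstream region with peaks of all 4 libraries. The fold was 4.31 and 4.09 with YAP, and with TAZ 2.79 and 4.20, so TAZ replicate 1, at percentile 23.3, stood apart from the other libraries, at percentiles 94.1 to 96.7. On the upstream side, the widest region of the CCN2 window spanned 4106 bp, 36169 to 40274 bp from the start. Its high folds came from separate places: 4.28 in YAP replicate 2 at 38258 to 38573 bp and 4.21 in TAZ replicate 2 at 39623 to 40251 bp. The other peaks of these libraries in the region had 2.87 and 3.03. The single peaks of the libraries numbered 1 overlapped both places, with 3.17 for YAP and 3.23 for TAZ.

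A pair of shorter upstream regions of CCN2 carried the highest fold of single libraries. At chr6:132295599-132296051, 23081 to 23533 bp upstream, the fold was 4.36 in YAP replicate 2 and 4.43 in TAZ replicate 2, each the highest of its library in this window (percentiles 97.1 and 98.2), and 3.43 in YAP replicate 1 (68.3). TAZ replicate 1 had no peak there. Its own highest fold, 4.32, lay at chr6:132277654-132278003, 5136 to 5485 bp upstream, the nearest upstream region of CCN2, where YAP replicate 1 had 2.70 and the libraries numbered 2 had no peak. The nearest upstream region with peaks of all 4 libraries lay at 10419 to 11000 bp and had a fold of 4.01 and 3.16 with YAP, and with TAZ 3.19 and 2.55.

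**Figure D3:**
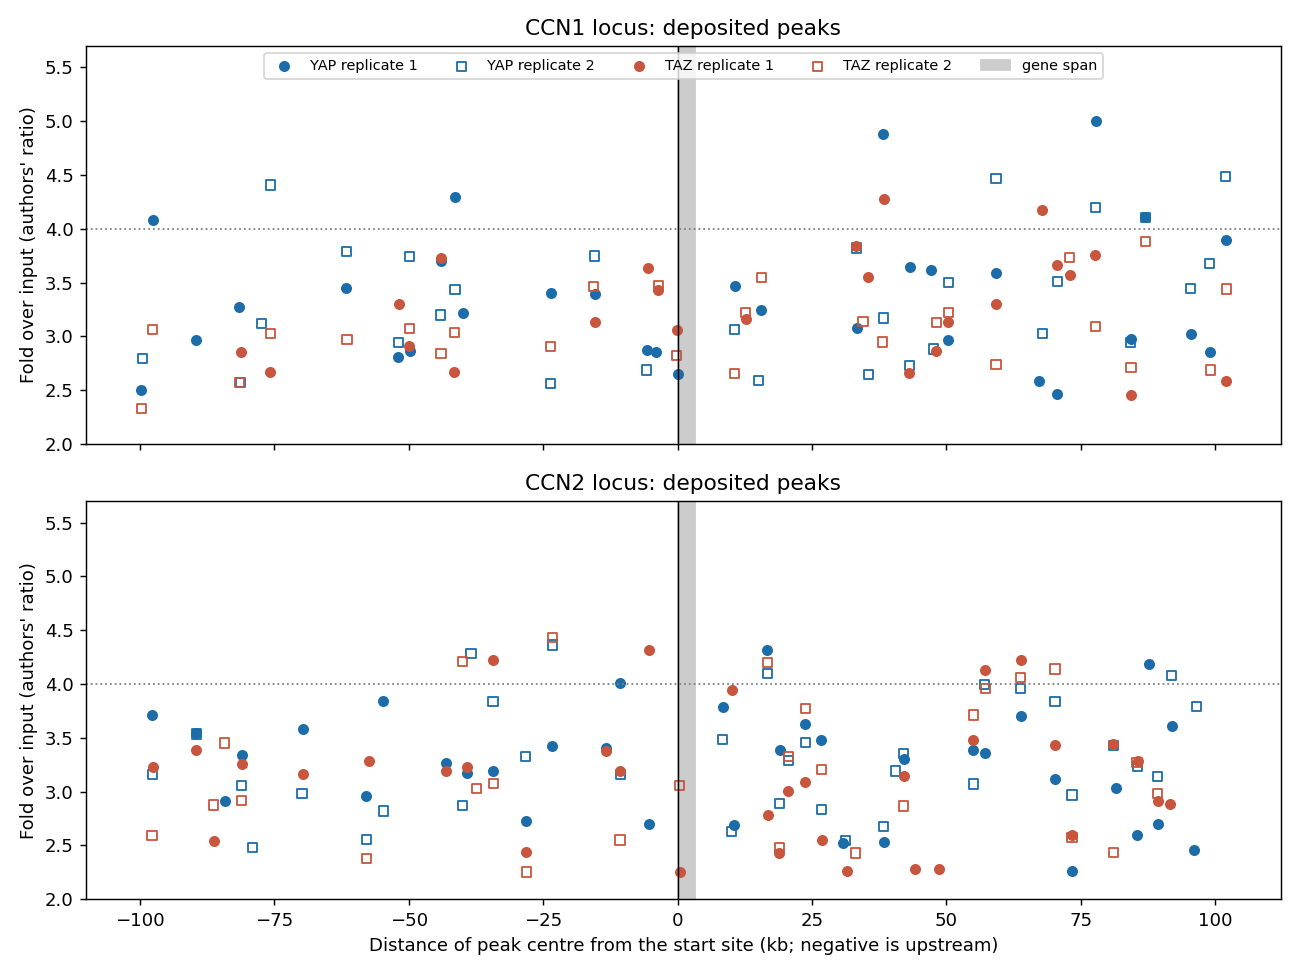
Fold over input of every deposited peak (vertical axis, the authors' ratio; dotted line at 4) against the distance of its centre from the start site (horizontal axis, kb, negative upstream). Blue is YAP and red TAZ, filled for replicate 1 and open for replicate 2, and the grey band is the gene span. The highest points, 5.00 at CCN1 and 4.43 at CCN2, lie outside the spans of CCN1 and CCN2 themselves. The peaks over or just inside the starts lie between 2.25 and 3.06.

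Counted against their lists, high-fold peaks at CCN1 were mainly from YAP. A fold of at least 4 was reached there by 5 of 31 and 5 of 29 YAP peaks (16.1% and 17.2%, against 9.22% and 7.52% of all peaks of these lists). It was reached by 2 of 24 and 0 of 26 TAZ peaks (8.33% and 0%, against 9.68% and 5.6%). At CCN2 the counts were 3 of 35 and 4 of 34 for YAP and 4 of 33 and 5 of 27 for TAZ (8.57%, 11.8%, 12.1% and 18.5%). The 2 YAP counts lay above the 2 TAZ counts at CCN1 and did not at CCN2.

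Strong peaks, the 20000 of each list with the highest −log10 q, were 5.1% and 5.66% of the YAP lists and 6.0% and 6.44% of the TAZ lists. CCN1 held 3 and 4 of them for YAP and 1 and 0 for TAZ, which is 9.68%, 13.8%, 4.17% and 0% of its peaks. CCN2 held 2 and 7 with YAP, and with TAZ 5 and 7, which is 5.71%, 20.6%, 15.2% and 25.9% of its peaks. Strong peaks of at least 2 libraries met in 1 of 36 regions at CCN1, the one at 77424 bp downstream, and in 6 of 43 at CCN2, against 3.08% of all regions. In 1 of these 6, the widest region of CCN2, the strong YAP and TAZ peaks lay apart within the region. Strong peaks of at least 3 libraries met in 3 regions of CCN2, those at 16480, 56739 and 63098 bp downstream, and in 0 at CCN1, against 0.778% of all regions. With so few regions these shares are a description. No region of either locus held strong peaks of all 4 libraries.

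Peaks of all 4 libraries met in 14 of 36 regions at CCN1 (38.9%) and in 20 of 43 at CCN2 (46.5%), close to or somewhat above the 39.2% of all merged regions. Of the CCN1 regions, 1 lies across the window's edge and holds 2 peaks outside it, and by peaks inside the window alone the count is 13. By side, CCN1 had 6 such regions upstream and 8 downstream, and CCN2 had 7 upstream and 13 downstream. Regions with a peak of 1 library only were 4 at CCN1 (11.1%), all from YAP, and 6 at CCN2 (14.0%), 3 from each antibody, against 22.4% of all regions. Where each library had exactly 1 peak, the 4 peak centres lay within a median of 150 bp at CCN1 (12 regions, 29.5 to 1117 bp) and 95 bp at CCN2 (19 regions, 39.5 to 602.5 bp).

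**Figure D4:**
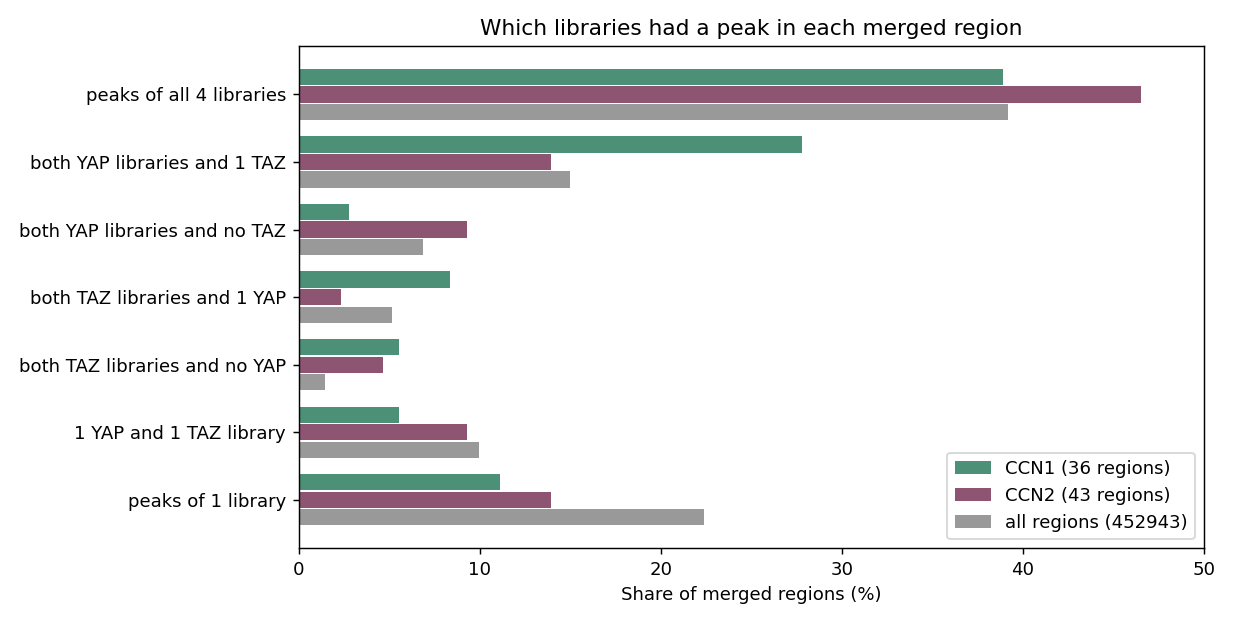
Share of merged regions (horizontal axis, %) by the libraries that had a peak in them, for CCN1 (green, 36 regions), CCN2 (purple, 43) and all regions (grey, 452943). Shares at both loci run near the grey bars for peaks of all 4 libraries, and above them, from 2 regions each, for both TAZ libraries and no YAP. Both YAP libraries and 1 TAZ hold 27.8% of regions at CCN1 and 14.0% at CCN2, against 15.0% of all regions.

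Regions with both libraries of 1 antibody and none of the other were few. Both TAZ libraries without YAP marked 2 regions at each locus (5.56% at CCN1 and 4.65% at CCN2, against 1.44% of all regions). At CCN1 they lay at 12484 to 12775 bp downstream (fold 3.16 and 3.22) and at 72684 to 73131 bp downstream (3.57 and 3.73). At CCN2 they were the region inside the gene described above and that at 86070 to 86478 bp upstream (2.54 and 2.88). They spanned 701 and 409 bp, where the median region of this locus spanned 582 bp.

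Both YAP libraries without TAZ marked 1 region at CCN1 and 4 at CCN2 (2.78% and 9.30%, against 6.87% of all regions). The CCN1 region lay at 95228 to 95630 bp downstream, with a fold of 3.02 and 3.45. At CCN2 the nearest lay past the end of the gene, at chr6:132263966-132264349, 8169 to 8552 bp downstream, with a fold of 3.79 and 3.48 (percentiles 85.0 and 73.8). The others lay at 38012 to 38646 bp downstream (2.53 and 2.68), at 54532 to 54932 bp upstream (3.84 and 2.82) and at 94984 to 97228 bp downstream (2.46 and 3.79).

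In bases, the loci leaned in opposite directions. Bases under peaks of both TAZ libraries and no YAP peak were 3817 at CCN1, 11.0% of the bases covered by any library, and 696 at CCN2, 1.77%, against 2.50% over chromosomes 1 to 22 and X. Bases under both YAP libraries and no TAZ peak were 1351 at CCN1 (3.90%) and 3551 at CCN2 (9.02%), against 6.76%. Bases under all 4 libraries were 25.9% of those covered at CCN1 and 32.2% at CCN2, against 30.1%. Most of the 3817 bases lay under the TAZ peaks described above, at the CCN1 start and 2829 to 4282 bp upstream. Of the 3551 at CCN2, 1497 lay in the region 94984 to 97228 bp downstream. This contrast between the loci was not tested.

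Widths within the regions that all 4 libraries shared leaned to YAP at CCN2, with no clear lean at CCN1. At CCN2, both YAP libraries covered more bases than both TAZ libraries in 10 of 20 regions, and both TAZ libraries covered more in 0. At CCN1 the counts were 2 and 3 of 14. The widths of the antibodies overlapped in 9 regions at CCN1 and in 10 at CCN2. Over all such regions, the shares were 31.2% for wider YAP and 9.58% for wider TAZ. An example at CCN2 is the region 22481 to 24966 bp downstream, with 2448 and 2378 bp for YAP and 2312 and 2148 bp for TAZ.

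**Figure D5:**
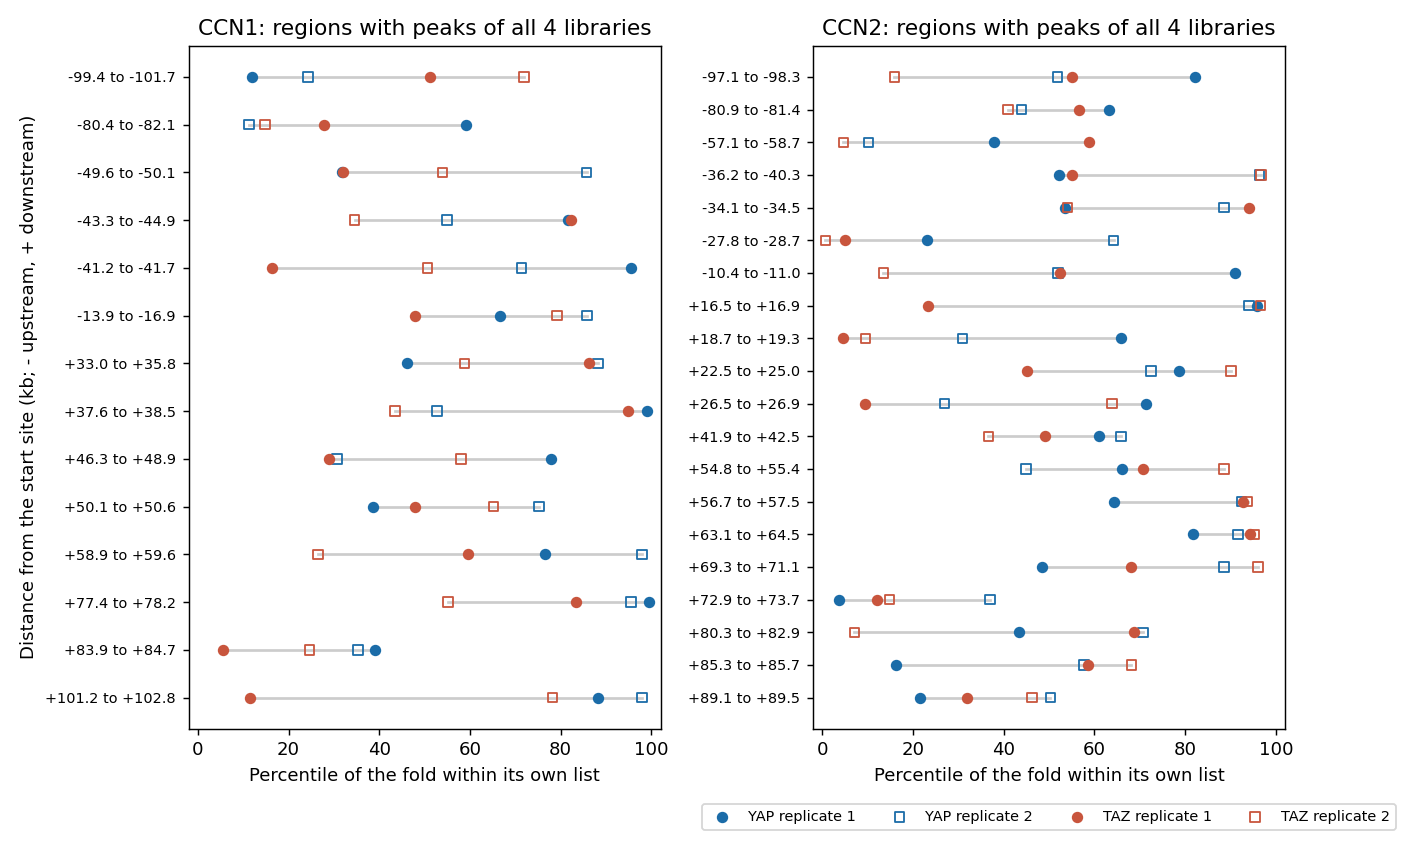
Regions with peaks of all 4 libraries, ordered along each locus by distance from the start site (vertical axis, kb). The horizontal axis is the percentile of the fold of each library's peak with the highest −log10 q within its own list, blue for YAP and red for TAZ, filled for replicate 1 and open for replicate 2. At CCN2 the region at 63.1 to 64.5 kb downstream has all 4 points between 81.7 and 95.2, while most other lines are long.

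Over the whole windows, YAP lists had more peaks than TAZ lists at both genes. At CCN1 there were 31 and 29 YAP peaks and 24 and 26 TAZ peaks, a mean of 30 ± 1.41 against 25 ± 1.41 (SD, n = 2), and the libraries did not overlap. At CCN2 there were 35 and 34 against 33 and 27, a mean of 34.5 ± 0.707 against 30 ± 4.24. At each gene p was 0.333 in a two-sided exact permutation test, and 2 libraries on each side can give no smaller value. The YAP lists are longer as a whole, and the difference at CCN1 fell from 5 to 1.5 peaks once all lists had the same length, while that at CCN2 was 6. At CCN2 the difference also moved with single libraries, to 7.5 without TAZ replicate 1 and 1.5 without TAZ replicate 2.

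The covered share of the CCN1 window did not separate the antibodies. It was 11.6% and 9.17% with YAP, and with TAZ 9.17% and 11.5% (10.4% ± 1.71 against 10.3% ± 1.63, exact two-sided permutation p = 1). At CCN2 it was 14.6% and 11.3% with YAP, and with TAZ 10.9% and 9.93% (13.0% ± 2.28 against 10.4% ± 0.700, exact two-sided permutation p = 0.333). The CCN2 values did not overlap, but YAP replicate 2 and TAZ replicate 1 nearly touched, and without YAP replicate 1 the difference fell from 2.54 to 0.921 percentage points.

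Each covered share was also divided by the share of chromosomes 1 to 22 and X that its own list covers. At CCN1 this ratio was 0.684 and 0.620 with YAP, and with TAZ 0.687 and 0.818, a difference of -0.101 for YAP minus TAZ (exact two-sided permutation p = 0.333). At CCN2 it was 0.860 and 0.767 with YAP, and with TAZ 0.819 and 0.708, a difference of 0.0501 (exact two-sided permutation p = 0.667). All 8 ratios were below 1, so both windows were less covered than the genome mean of the same lists. In all 4 libraries both windows were still more covered than the median of the tiles described below. That median ran from 6.99% (TAZ replicate 2) to 11.1% (YAP replicate 1).

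CCN2 was more covered than CCN1 in 3 of 4 libraries. The difference was 1.35 ± 1.99 percentage points (SD, n = 4 libraries, range -1.54 to 2.99), and TAZ replicate 2 went the other way (exact two-sided sign-flip permutation p = 0.25, where 0.125 is the smallest possible). With a flank of 10 kb in place of 100 kb the order turned, and CCN2 minus CCN1 was -5.30 points.

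Set among 14011 adjacent tiles of the same length that held a peak in any list, both windows lay in the middle part of the range for peak number and covered share. Peak numbers exceeded those of 58.1% and 60.7% of tiles for YAP and 55.0% and 62.5% for TAZ at CCN1, and 68.2%, 70.7%, 71.7% and 64.1% at CCN2. Covered bases exceeded 51.6% to 62.7% of tiles at CCN1 and 58.8% to 61.9% at CCN2. The highest fold of the CCN1 window exceeded that of 84.8% and 63.5% of tiles for YAP, but of 36.9% and 29.7% for TAZ. At CCN2 the shares were 41.9% and 53.5% with YAP, and with TAZ 39.5% and 68.6%.

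Overlap within an antibody ran near the level of the whole lists, and overlap between antibodies ran below it at CCN1. The Jaccard index, shared bases divided by bases covered by either library, was 0.568 between the YAP libraries at CCN1 and 0.642 at CCN2, against 0.612 in the genome. Between the TAZ libraries it was 0.551 and 0.488, against 0.494. The 4 pairs that mix antibodies had 0.413 to 0.488 at CCN1 and 0.433 to 0.547 at CCN2, against 0.495 to 0.540. All 4 mixed pairs at CCN1 lay below their own genome value, most of all YAP replicate 1 with TAZ replicate 1 (0.413 against 0.540). At CCN1 both pairs of the same antibody exceeded all 4 mixed pairs. At CCN2 the YAP pair did, and the TAZ pair lay inside the range of the mixed pairs.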

How the data were processed

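Peak lists of the 4 antibody libraries were used. Per the submitters' processing notes, the authors used cutadapt, Bowtie2, SAMtools and MACS2 with build hg19; settings are not given in the sources used here. Broad peaks were deposited per library, and the peak names point to 1 common input while the list names point to another per replicate number, so the input is unsettled. The deposited fold is a ratio of ChIP to input. Peak significance was deposited as −log10 p and −log10 q, and the authors' score column was left aside. Fold and −log10 q were ranked within a list only. Starts were shifted to count from 1. Coverage, merging and exact permutation tests were computed in Python 3.11.15 with numpy 2.4.6 and pandas 2.3.3, after being tested on simulated intervals. Where a library had several peaks in a region, the one with the highest −log10 q gave its fold. Depth is unknown.

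Named regions were those over the start site or gene (at CCN2, where none lay over the start, also the nearest on each side), the nearest on each side with peaks of all 4 libraries, the 3 with peaks of all 4 libraries and the highest mean fold percentile, the widest, those with the highest fold of each library, and those of 1 antibody only. Members, lists and rules were chosen with earlier results of these data known; the classes of both libraries of an antibody with at most 1 of the other, the strong-peak classes, the width classes and the peak-centre distances, and the regions 2829 bp upstream of CCN1 and 22481 bp downstream of CCN2, were added after seeing the values. Alternatives were other thresholds, list lengths, flanks, merging and overlap rules, libraries left out and the replicate block. Other YAP/TAZ target genes were not analysed here, since no hg19 annotation was used.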

Additional observations from a re-analysis of the deposited data

How the results depend on the processing

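With 2 libraries an antibody, no exact permutation test of YAP against TAZ could pass 0.05, so only direction and size are compared. For YAP minus TAZ, peak number kept its sign in 10 of 11 alternatives at CCN1 (-1 with a 10 kb flank) and in 9 of 11 at CCN2 (-1 at a fold of at least 4, -1.5 with 20000 strong peaks). Each set of 11 includes the replicate block, which by its construction cannot change a sign. The covered share at CCN1 kept its sign in 6 of 11: it was -1.87 points with lists shortened to the shortest, -2.34 with a 50 kb flank and -10.9 with a 10 kb flank, and between -1.15 and 1.27 with 1 library left out (-1.15 without YAP replicate 1, -1.09 without TAZ replicate 1). At CCN2 it turned to -1.12 at a fold of at least 4 and -1.34 with 20000 strong peaks. The share relative to the list turned at CCN1 to 1.49 and 1.52 under these same settings. At CCN2 it turned to -2.65 and -2.25, to -0.0547 with a 50 kb flank, and ranged from -0.00501 (without TAZ replicate 2) to 0.105 with 1 library left out. CCN2 minus CCN1 turned to -1.54 and -5.30 points with 50 and 10 kb flanks.

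Regions with peaks of all 4 libraries numbered 9 at CCN1 and 13 at CCN2 at a q-value of at most 0.01, 8 and 9 with a 50 kb flank, and 0 and 0 at a fold of at least 4, with 20000 strong peaks and with a 10 kb flank. A reciprocal overlap of 50% with peaks of YAP replicate 1 gave 9 at CCN1 and 16 at CCN2. With 1 library left out, regions with peaks of every remaining library numbered 14 to 19 and 20 to 25. That class is looser, so its counts could hardly fall below the main ones. Of 23 named regions, 19 kept all their libraries at a q-value of at most 0.01, 21 with shortened lists and 0 at a fold of at least 4. The cause of these changes was not tested beyond the fewer peaks or bases each setting leaves.

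The labels give same-numbered libraries only a number, though the list names also point to an input per number. Over tiles, their deviations correlated with r = 0.462. With the replicate block the differences were 5 peaks at CCN1 (exact sign-flip permutation p = 0.5, the smallest possible) and 4.5 at CCN2. Pairing leaves a mean difference as it is, so the block could change no direction.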
